A study of Mus musculus with 2 samples.

Results

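The matrix metalloproteinases (Mmp), the ADAM, ADAMTS and ADAMTS-like genes, and the tissue inhibitors of metalloproteinases (Timp) were examined in the E18.5 mouse ureter after loss of Pparg. Genes were chosen by their symbol on the array, which begins with Mmp, Adam, Adamts, Adamtsl or Timp followed by a digit. This gave 84 of the 29923 genes measured: 23 Mmp, 33 Adam, 19 Adamts, 5 Adamtsl and 4 Timp genes. They were represented by 125 of the 39429 probes, and 49 of them by 1 probe only.

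RNA of pooled ureters of NMRI embryos was hybridized to 2 arrays, each of which compared a Pparg-cKO pool with a control pool of the same sex in a different dye, called the female and the male pair below. Pparg-cKO embryos carried Pax2-cre on 1 chromosome and floxed Pparg on both (Pax2-cre/+; Pparg(fl/fl)). Control embryos were labelled Pparg(fl/?), so they shared at least 1 floxed allele, and their other allele was not stated. Per the study's methods, the controls were littermates without cre. Pax2-cre acts in the nephric duct, the ureteric epithelium and the collecting ducts of the kidney, while the pools also contained the muscle and connective tissue of the ureter. Replicate 1 was female and replicate 2 was male, with the dyes exchanged, so sex, dye orientation and array cannot be told apart. In bulk RNA of this kind fewer cells of a type and less RNA per cell cannot be told apart either. The p-values rest on the spread between these 2 arrays, moderated by that of all genes tested. They measure no variation beyond these arrays.

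Matrix metalloproteinases are zinc enzymes that cut collagens, other matrix proteins and growth factors, and most are made as inactive precursors. ADAM proteins are membrane-bound relatives, some of which shed ligands and receptors from the cell surface while others have lost catalytic activity. ADAMTS enzymes are secreted and cut proteoglycans and procollagens, ADAMTS-like proteins share their matrix-binding modules without the protease, and the 4 TIMPs are secreted inhibitors. Pparg encodes a nuclear receptor that binds DNA with a retinoid X receptor.

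The probes behind the 2 genes that met a criterion for change, Adam28 and Adamtsl3, are shown by the first 30 of their 60 bases, as given by the array design on mouse build mm9. Whether they lie in coding or untranslated exons was not analysed here. The brighter Adam28 probe lies at chr14:69227924-69227983 on the minus strand, the second Adam28 probe at chr14:69272187-69272246, and the only Adamtsl3 probe at chr7:89761288-89761347 on the plus strand.
Adam28, brighter probe: accaaggatgccaagctacacaatcagaag
Adam28, second probe: ctgcatcaggaacatggcagcaagagatgt
Adamtsl3: caaacacatcatcacctgctgtgctttgta

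All ratios are log2 of Pparg-cKO over control, with signs as in the deposited table, whose columns are titled Pparg-cKO against control. The same direction is followed by the study's text and by its tissue sections for other genes than Pparg, and it is therefore taken as the likely one. The dye labels as written give the opposite sign on both arrays. If those labels are right, every "higher" and "lower" below is exchanged, while sizes and p-values stay. Pparg itself gave a processed signal of 12360 in the Pparg-cKO and 6113 in the control pool in the female pair, and of 12930 and 6688 in the male pair. In the deposited direction the probe was thus 1.96-fold higher in Pparg-cKO (limma, adjusted p = 0.0373). The position of this probe in the gene was not compared with that of the exons that the floxed allele removes, so it does not check the labels.

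The labelled tissue was represented by its markers. All 7 urothelial, 4 smooth muscle and 5 fibroblast markers examined were detected. The summed signal of the urothelial markers was 47090 in Pparg-cKO and 67738 in control in the female pair, and 53991 and 60137 in the male pair. Upk3a alone made up 31200 and 41120 of the female sums, and 32500 and 36170 of the male ones. Upk1b, Upk2, Upk3a and Trp63 were lower in both pairs, Epcam and Cdh1 were higher in both, and Krt5 differed in sign. The sums therefore do not measure the amount of urothelium. The smooth muscle markers summed to 95116 in Pparg-cKO and 104124 in control in the female pair, and to 90994 and 104941 in the male pair. The macrophage markers summed to between 2698 and 2953 in the 4 pools. The spermatid marker Prm1 was 3.41 and 4.04 higher on the log2 scale in Pparg-cKO, with the other 4 spermatid markers dim or not detected. Of the 2 collecting duct markers, Fxyd4 was 2.53 and 2.24 higher (limma adjusted p = 0.0062) and the dim Aqp2 gave -0.12 and -0.17. The part of these markers in the values below was not tested.

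Of the 84 genes, 60 were well above background in at least 1 pool on both arrays and were tested, and 37 reached a scanner-processed signal of 100 or more in the brighter of the pools of each array. The 24 genes not tested comprised 13 Adam, 10 Mmp and 1 Adamts gene. The Mmp genes among them were the collagenases Mmp1a, Mmp1b and Mmp13, the matrilysin Mmp7, the stromelysin Mmp10, the macrophage elastase Mmp12, and Mmp20, Mmp21, Mmp27 and Mmp28. The processed signals of these 10 were at most 3 in every pool. The Adam genes not tested were Adam1b, Adam2, Adam6a, Adam7, Adam18, Adam20, Adam24, Adam25, Adam26a, Adam29, Adam30, Adam34 and Adam39, several of which are known for expression in the testis or epididymis, and the Adamts gene was Adamts20. Of these genes, 21 were not well above background in any pool, and Mmp10, Adam25 and Adam39 were so in the female control pool alone.

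Among the 60 tested genes, 17 were higher on both arrays, 21 were lower on both and 22 differed in sign between the arrays. Over all 22499 genes tested these counts were 5986, 5887 and 10626. The median ratio was -0.04 in the female and 0.09 in the male pair, beside -0.01 and 0.01 over all 22499 genes tested. The median size of the ratio was 0.10 in the female pair, as for all genes (0.10). On the male array it was 0.25 for these genes and 0.15 for all genes. The plot of all 60 genes shows the wider scatter of the male array and the small number of genes whose points lie together away from 0.

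**Figure D1:**
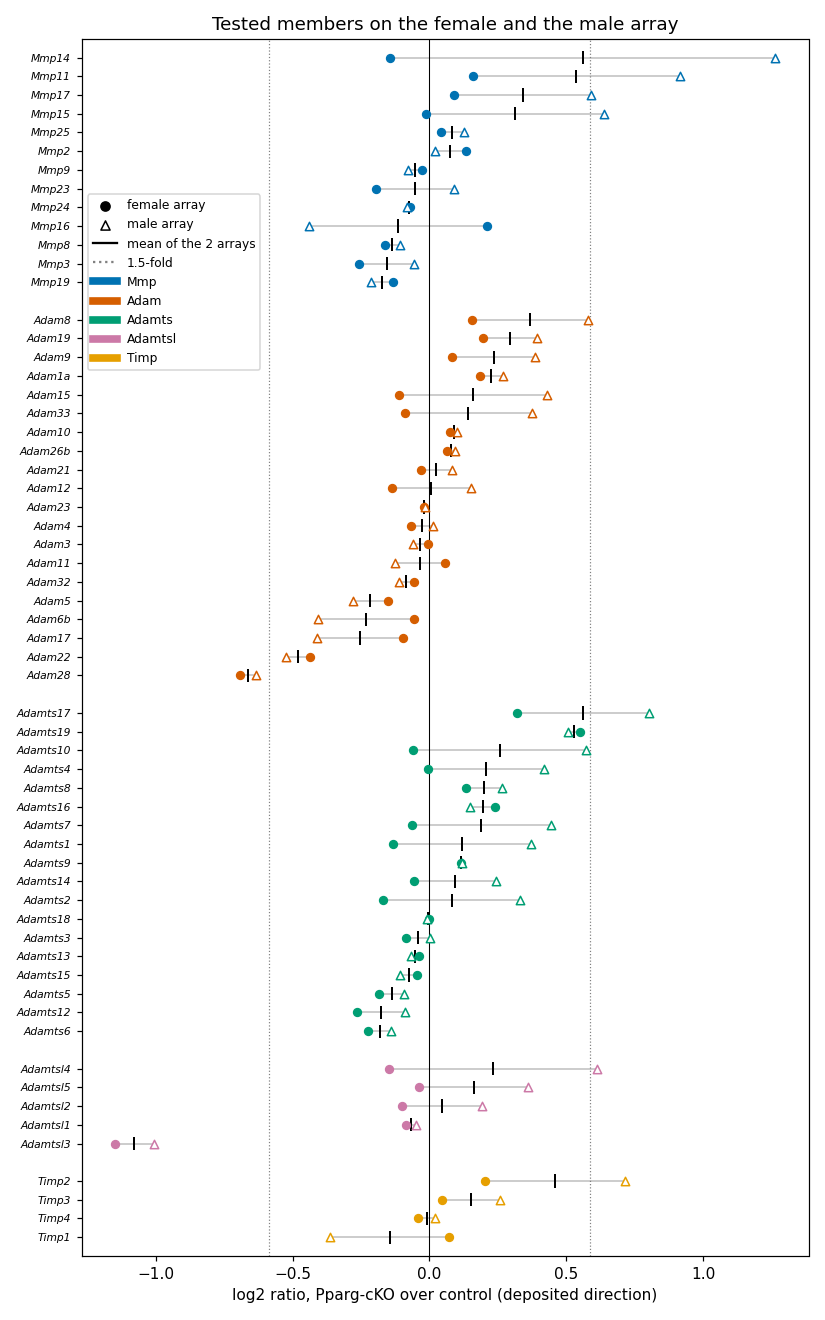
Log2 ratio of Pparg-cKO over control (x axis) for the 60 tested genes (y axis, grouped by family and ordered by mean ratio). Filled circles are the female array, open triangles the male array and black ticks the mean of the 2; dotted lines mark 1.5-fold. Adamtsl3 and Adam28 lie left of the lower line on both arrays, whereas 7 genes lie beyond the upper line in the male pair and none in the female pair.

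A gene was called changed by the fold rule when it differed at least 1.5-fold in the same direction on both arrays with a signal of at least 100. Adam28 was the 1 gene of 37 that met it, and it was lower. Over all genes bright enough the rule was met by 1.84%. In limma, 1 of 60 genes passed an adjusted p of 0.05, namely Adamtsl3, which was also lower, beside 0.751% of all genes tested. At an unadjusted p under 0.05, 6 genes were higher and 3 lower, or 15% beside 8.51% of all genes. The 6 were Adamts17, Adamts19, Mmp11, Timp2, Adam8 and Adam19, and the 3 were Adamtsl3, Adam28 and Adam22.

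Adamtsl3 encodes an ADAMTS-like protein of the extracellular matrix without protease activity. Its processed signal was 22.1 in the Pparg-cKO and 77.9 in the control pool in the female pair, and 23.5 and 63.1 in the male pair. All 4 pools were flagged well above background. The log2 ratio was -1.15 in the female and -1.005 in the male pair. The mean was -1.08 ± 0.10 (SD, n = 2), a 95% interval from -1.36 to -0.80 and a limma adjusted p of 0.0315. This is 2.11-fold lower after normexp correction, which adds an offset of 50 and draws dim ratios towards 0. From the scanner-processed signals it was 3.08-fold lower. The gene lay below the signal minimum of 100 and so could not meet the fold rule. Its call was lost in the deposited table (mean ratio -1.56, limma adjusted p = 0.533), where 0 genes of the whole array were called. It was also lost without the filter on dim probes (mean ratio -1.08, limma adjusted p = 0.061). No second probe was present to compare.

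The other 4 ADAMTS-like genes had no call. Adamtsl1, a secreted matrix protein also named punctin, gave -0.08 and -0.05 with its brightest probe, -0.20 and -0.43 with its second, and -0.49 and -0.15 with the remaining probe. Adamtsl4, which binds fibrillin microfibrils, differed by -0.15 in the female and 0.61 in the male pair, and Adamtsl5 by -0.04 and 0.36. Adamtsl3 was therefore the family's only member with both ratios beyond 1.5-fold.

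Adam28 encodes a membrane-bound and secreted metalloproteinase known from lymphocytes and from epithelia. Its processed signal was 271 in Pparg-cKO and 448 in control in the female pair, and 271 and 438 in the male pair. In each pair the Pparg-cKO signal was the lower one. The log2 ratio was -0.69 and -0.63, with a mean of -0.66 ± 0.04 (SD, n = 2), or 1.58-fold lower, and the limma adjusted p was 0.101. The second probe gave signals of 99.2 against 160 and 87.7 against 155, and a ratio of -0.63 on each array. The probes shown above thus gave similar sizes in the same direction. Under median centring of the arrays in place of loess, where its mean ratio was -0.56, Adam28 did not meet the fold rule.

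Some marker genes moved with both genes. Of the 3 kidney tubule markers, Lrp2 gave -0.13 and -0.89, the dim Slc34a1 gave -0.06 and -0.22, and Umod was not tested. Of the 7 urothelial markers, Upk1b, Upk2, Upk3a and Trp63 had lower signals in Pparg-cKO in both pairs, Epcam and Cdh1 had higher ones in both, and Krt5 gave -0.86 and 0.35. Of the 3 skeletal muscle markers, Ckm, which the study also uses for smooth muscle, gave -0.50 and -0.95, the dim Actn2 gave -0.34 and -0.46, and Myh3 gave -0.02 and 0.24. Of the 4 cartilage and bone markers, Bglap gave -1.77 and -1.54 (limma adjusted p = 0.012) and Ibsp -0.92 and -1.37, whereas Col2a1 gave 0.31 and 1.01 and Col10a1 -0.002 and 0.21. Of the 2 liver markers, Alb gave -0.19 and -1.08 and the dim Apoa1 0.03 and -0.59. Of the 5 neutrophil markers, Ngp gave -0.21 and -0.43 and S100a9 -0.0005 and -0.72, Elane and S100a8 were lower in the male pair alone (-0.28 and -0.63), and Mpo gave 0.10 and 0.13. In the other lists, Tagln, Aldh1a2, Adgre1, Elavl4, Aqp2 and the dim Prm2 had negative ratios on both arrays. The part of these differences in the Adam28 and Adamtsl3 values was not tested.

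Adamdec1, an ADAM-related soluble metalloproteinase known from macrophages and the gut, lies next to Adam28 on chromosome 14 in the RefSeq annotation. Its signal was 85.8 in Pparg-cKO and 147 in control in the female pair, and 108 and 162 in the male pair. The log2 ratio was -0.61 and -0.56 (limma adjusted p = 0.141), close to that of Adam28, and the male pair missed the 1.5-fold threshold. Adam7, further along on the same side, was not detected. The neighbourhood was looked up after the values were seen. The 5 macrophage markers had ratios between -0.08 and 0.29 on the 2 arrays.

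Of the other ADAM genes, Adam22, a catalytically inactive protein that binds LGI ligands at synapses, gave ratios of -0.44 and -0.52 (limma adjusted p = 0.238). Its processed signal was 228 against 290 in the female pair and 182 against 283 in the male pair. The remaining 2 Adam22 probes were below 13 units in every pool and gave means of -0.17 and -0.22. Adam17, the main sheddase of TNF and of several EGF receptor ligands, gave -0.10 in the female and -0.41 in the male pair. Adam6b, a gene needed in sperm, gave -0.06 and -0.41 at signals under 40. Neither passed a test.

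The 3 brightest ADAM genes were Adam10, Adam9 and Adam19. Adam10, the sheddase of Notch receptors and of many adhesion molecules, had processed signals of 5473 and 5157 in the Pparg-cKO and control pools in the female pair, and of 5936 and 5731 in the male pair. Its ratios of 0.08 and 0.10 had a limma adjusted p of 0.917. Adam9, a widely expressed sheddase, gave 0.08 and 0.39, and Adam19, which processes neuregulin, gave 0.19 and 0.39. Adam19 had an unadjusted p of 0.0467 and an adjusted p of 0.578, and its second probe averaged -0.02.

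Among the ADAMTS genes none met the fold rule or passed limma. Adamts19, an ADAMTS with few known substrates that is needed in heart valves, gave ratios of 0.55 and 0.51, with signals of 876 against 599 in the female pair and 882 against 635 in the male pair. Both ratios fell short of 1.5-fold, and the limma adjusted p was 0.181. Adamts17, which acts on fibrillin microfibrils, gave 0.32 and 0.80 (adjusted p = 0.350), but its second probe, at signals under 21, gave -0.12 and 0.14. The proteoglycanases Adamts9 and Adamts1 were bright. Adamts9 gave 0.11 and 0.12, with a second probe at a mean of -0.18, and Adamts1 gave -0.13 and 0.37. The family's median ratio was -0.05 in the female and 0.20 in the male pair, and 0.10 for the mean of both, beside 0.01 over all genes tested. It thus changed sign between the arrays, as did the medians of the Adam (-0.04 and 0.05), Adamtsl (-0.10 and 0.19) and Mmp genes (-0.03 and 0.02).

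**Figure D2:**
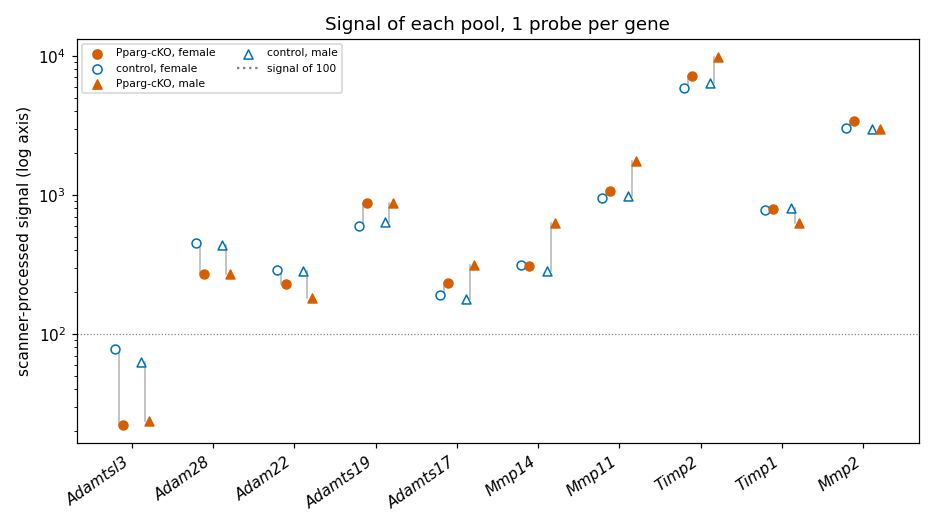
Processed signal (y axis, log scale) of 10 genes in the 4 pools, with filled symbols for Pparg-cKO, open symbols for control, circles for female and triangles for male; the dotted line marks a signal of 100. Adamtsl3 and Adam28 are lower in Pparg-cKO in both sexes, Adamts19 is higher in both, and Mmp14 and Mmp11 differ mainly in the male pair.

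Of the 13 Mmp genes tested, 4 were higher on both arrays, 5 were lower on both and 4 differed in sign. Over all 22499 genes tested these counts were 5986, 5887 and 10626. No Mmp gene met the fold rule or passed limma. Mmp14, a membrane-anchored collagenase that activates pro-Mmp2, had signals of 309 in Pparg-cKO and 314 in control in the female pair, and of 633 and 284 in the male pair. The male Pparg-cKO pool thus stood apart from the other 3 pools. The ratios were -0.15 and 1.26 and their mean of 0.56 ± 1.00 (SD, n = 2) had an adjusted p of 0.748. Mmp11, or stromelysin-3, which furin activates inside the cell, gave 0.16 and 0.91 with its brighter probe and 0.24 and 0.77 with its second probe. The gelatinase Mmp2, with signals between 2968 and 3401 in the 4 pools, gave 0.13 and 0.02. Mmp23, a membrane-released member, gave -0.20 and 0.09.

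The 4 inhibitors had no call. Timp2, which both inhibits Mmp2 and takes part in its activation by Mmp14, had signals of 7194 against 5885 in the female pair and 9785 against 6411 in the male pair, or ratios of 0.20 and 0.71 (adjusted p = 0.504). Its second probe gave 0.11 and 0.37. Timp3, the matrix-bound inhibitor that also acts on Adam17, gave 0.04 and 0.26. Timp1 gave 0.07 and -0.36, and the dim Timp4 gave -0.04 and 0.02. Timp2 was the inhibitor with the largest mean ratio, and Timp1 the only one that was lower in the male pair.

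Counted on 1 array at a time among the 37 bright genes, 0 were at least 1.5-fold higher and 1 was lower in the female pair, beside 1.2% and 1.85% of all genes bright enough. On the male array 6 were higher (16.2%) and 1 was lower (2.7%), beside 6.3% and 1.95%. The 6 were Mmp14, Mmp11, Mmp17, Adamts17, Adamtsl4 and Timp2, and Mmp15 also passed 1.5-fold but was below 100 in the female pair. The 1 lower gene was Adam28 on both arrays. Of the 5 fibroblast markers, Col1a1 gave 1.07 in the male pair, while Pdgfra, Dcn, Tbx18 and Aldh1a2 lay between -0.27 and 0.04. The list summed to 99905 in the male Pparg-cKO and 74953 in the male control pool, of which Col1a1 made up 41670 and 19760. Of the 7 urothelial markers, Cdh1 gave 1.10, Epcam 0.48 and Krt5 0.35 in the male pair, while the other 4 lay between -0.73 and -0.17. None of the 4 smooth muscle markers was 1.5-fold higher there. The part of these differences in the ratios was not tested.

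**Figure D3:**
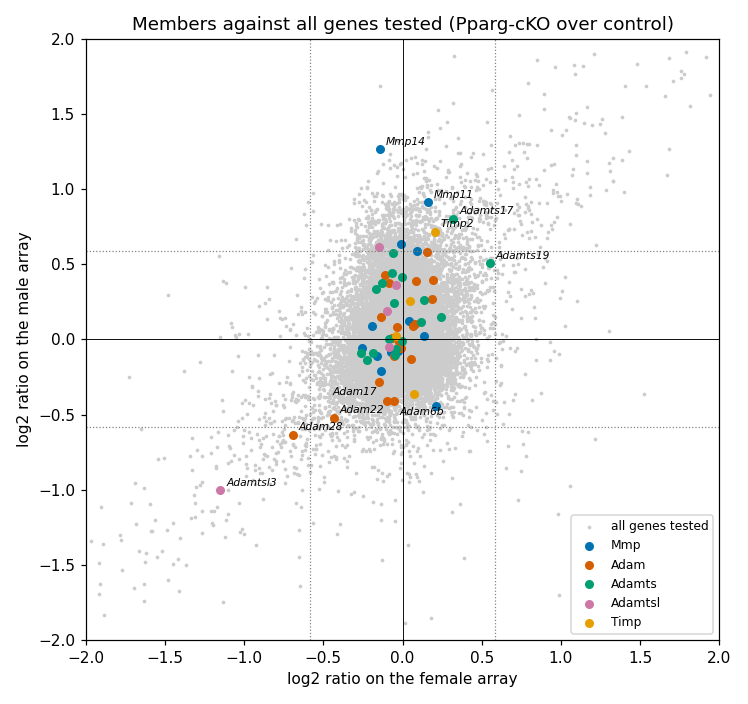
Log2 ratio in the female pair (x axis) against the male array (y axis) for all 22499 genes tested (grey) and the 60 genes described (colored by family), with dotted lines at 1.5-fold; 47 genes lie outside the drawn range of 2 and none of them is a member of these families. Adam28 and Adamtsl3 sit in the lower left corner with genes lower on both arrays, and Mmp14, Mmp11, Adamts17 and Timp2 lie above the upper line on the male axis only.

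Genes that activate or regulate these enzymes, related metalloproteinases and matrix substrates were examined as 3 lists. Of their 53 genes, 48 were tested and 35 were bright, and 0 met the fold rule or passed limma. At an unadjusted p under 0.05, 4 were higher (Nid1, Thsd4, Papln, Pappa2) and 3 lower (Adamdec1, Mep1a, Mep1b), or 14.6% beside 8.51% of all genes tested. Mep1a and Mep1b passed the background filter through the control pools alone, so the share depends in part on that filter. Among the 35 bright list genes, 0 were at least 1.5-fold higher and 1 was lower in the female pair, beside 1.2% and 1.85% of all genes. In the male pair 6 were higher (17.1%) and 0 lower, beside 6.3% and 1.95%.

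In the list of activators and regulators, Furin, the convertase that activates many of these precursors, gave -0.08 in the female and 1.14 in the male pair. The iRhom genes Rhbdf1 and Rhbdf2, which bring Adam17 to the cell surface, gave -0.09 and 0.68, and -0.30 and 0.73. Each was thus higher in the male pair alone. Reck, a membrane-bound inhibitor of several Mmps, gave 0.09 and 0.34. The tetraspanins that accompany Adam10 included Tspan14 (-0.12 and 0.19) and Tspan5 (0.13 and 0.21).

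Among related metalloproteinases, the meprin genes Mep1a and Mep1b, known from the brush border of the kidney tubule and gut, were not well above background in Pparg-cKO and were dim in control. The ratios in the female and male pairs were -0.58 and -0.88 for Mep1a, and -0.42 and -0.79 for Mep1b. Both genes passed the background filter through the control pools alone, so these ratios are no test of a change. The kidney tubule marker Lrp2 gave -0.13 and -0.89. The summed signal of the 3 kidney tubule markers was 105 in Pparg-cKO against 113 in control in the female pair, and 67 against 138 in the male pair. Their part in the meprin values was not tested. The bright procollagen proteinase Bmp1 gave -0.10 and 0.68.

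Among matrix substrates, the basement membrane gene Nid1 gave 0.36 on both arrays (unadjusted p = 0.0173, adjusted p = 0.396). The proteoglycan Vcan, a substrate of Adamts1 and Adamts9, gave 0.36 and 0.12. Fn1 and Eln, for fibronectin and elastin, gave 0.05 and 0.76, and 0.07 and 0.78, and so differed in the male pair alone. Fbn1 gave 0.18 on each array, and Dcn, a proteoglycan of connective tissue, gave 0.05 and 0.04.

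**Figure D4:**
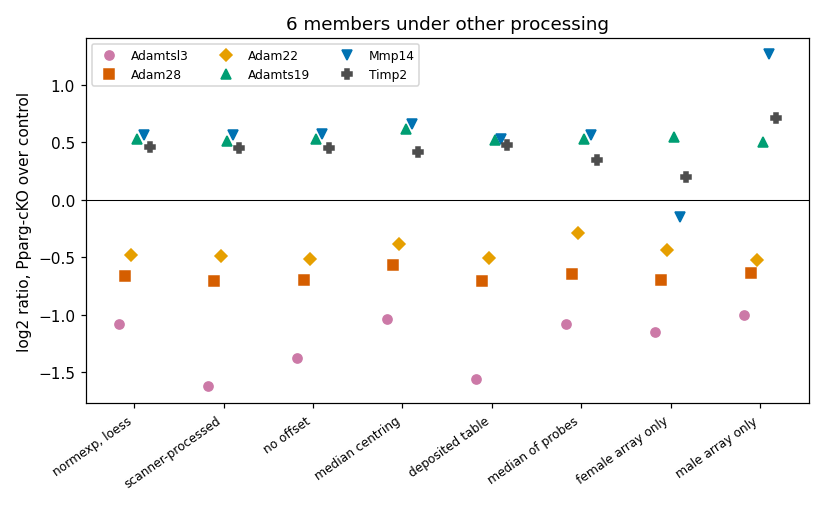
Log2 ratio of Pparg-cKO over control (y axis) for 6 genes under the main processing, 5 other ways of processing and each array alone (x axis). Adamtsl3 and Adam28 stay below 0 under all 8 settings with Adamtsl3 between -1.62 and -1.005, while Mmp14 is at -0.15 in the female pair alone and at 1.26 in the male pair alone.

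Promoters were searched for the sequence that PPARG and its partner bind, a direct repeat of AGGTCA with any 1 base between, on both strands and with up to 2 mismatches. The RefSeq promoters (build GRCm38.p6) run from 250 bases before to 50 bases after a gene start, and 58 of them belonged to 53 of the 84 genes. A match was found in 2 of the 58 (3.45%), for Adam6b and Mmp1b, beside 3.86% of all 32851 promoters. The Adamtsl3 promoter, at chr7:82335444-82335743, held no match. For Adam28 no promoter was examined.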

How the data were processed

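Total RNA of pooled E18.5 ureters was amplified in 1 round and labelled with AlexaFluor 555 or 647. The deposited scanner files, made with Agilent Feature Extraction 10.7.3.1 per the labels, held linear spot intensity: mean signal, local background and a processed signal, with flags. The deposited value table held the authors' signed fold change per probe and array and was used for direction and as an alternative. Its correlation with log2 red over green was 0.989 (female array) and -0.994 (male array).

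Mean signals were corrected with normexp (offset 50) and each array was then loess-normalized, both with limma 3.58.1 (R 4.3.3). Outlier spots (2.87% and 3.24%) were dropped and the 4 spots of a probe averaged. A gene was its brightest probe. limma (lmFit, eBayes, two-sided) tested the mean of 2 ratios with Benjamini-Hochberg adjustment over 22499 genes, with 1 residual and 4 prior degrees of freedom. The fit was tested on simulated data. The median spot signal was 293 to 334 per channel, and the number of arrays limits the precision. Labels do not say whether pools of the 2 arrays came from separate litters.

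The genes and lists were chosen with earlier results of these data known. Genes were named when past the fold rule or called by limma, as Timp genes, among the 5 largest rises and falls, or among the 3 brightest of each other family; others were named after their values were seen. Of the 84 gene accessions 83 matched RefSeq. Protein sequences were not analysed here. Alternatives were other background correction, scaling, probe summary, filters, the deposited table and each array alone.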

Additional observations from a re-analysis of the deposited data

How the results depend on the processing

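Main counts were 1 of the family genes by the fold rule, 1 by limma, and 0 and 0 for the lists. The fold rule called 0 family genes under median centring (217 genes of the whole array, against 258) and at 2-fold (112), and 2 (Adam28 and Adamtsl3) without the minimum signal (359). With each array alone it called 1 to 8 family genes and 1 to 6 list genes, of 444 and 1253 genes of the whole array. limma called 2 family genes (Adam28 and Adamtsl3) and 3 list genes (Adamdec1, Mep1a, Mep1b) with no normexp offset, where it called 571 genes of the whole array, and 0 family genes in the deposited table, where it called 0 genes of the whole array, and 0 without the filter on dim probes, where it called 94 genes against 169 in the main processing. The list count by the fold rule was 1 with no offset and in the deposited table (Adamdec1 each time, of 284 and 291 genes), and 1 with the median over probes (Mme, of 241). Over the alternatives tested, the limma adjusted p ran from 0.000239 to 0.533 for Adamtsl3 and from 0.0263 to 0.575 for Adam28. The cause of these changes was not tested. Mep1a and Mep1b passed the background filter through the control pools alone. The median ratio of the Mmp genes, -0.05 in the main processing, was -0.0871 with scanner-processed signals, 0.0255 under median centring, -0.016 over all probes and -0.00137 without the filter, and -0.0277 to 0.0193 with each array alone. That of the Timp genes was 0.0575 to 0.139 with each array alone. The ratios of Adamtsl1 (0.0328), Mmp23 (0.0376) and Timp4 (0.00848) turned positive under median centring, and that of Adamts9 turned negative (-0.0314) with the median over probes. None of these 4 had a call. Each ratio sets the 2 pools of 1 array and sex against each other, so the main fit is already paired and no further block could be added. Dim genes are limited by signal over background: 24 of the 84 genes could not be tested.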
